A study of Mus musculus with 8 samples.

Results

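The B lineage genes described here are Cd79a, Cd79b, Ms4a1, Vpreb3 and Jchain (formerly Igj), 5 of the 18217 genes with a symbol on the array. They were chosen by name, with earlier results of these data known. Every non-control probe whose accession maps to one of these symbols was read, which gave 7 probes. A filter on dim probes, which asked for a signal clearly over background on 4 or more arrays of the 8, was passed by 4 of the 5 genes and not by Cd79a. The genes were read in the hearts of 4 fasted and 4 satiated mice, all male C57BL/6J mice, a standard inbred strain, 9 weeks old and kept on a rodent pellet diet. The fasted mice had been without food, but with water, for 2 days, and the satiated mice had received no treatment. Total RNA was labelled with the dye Cy3 and hybridised to Agilent mouse arrays in 1 colour, 1 array per sample, to ask which transcripts differ in the heart after a fast. The labels number the samples but say nothing more on whether each is a separate animal, so a p-value here measures the spread between these samples only. The sources used here do not say whether blood was washed out of the hearts.

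B cells recognise antigen through a membrane immunoglobulin that signals only together with the Cd79a and Cd79b chains. The lineage starts in the bone marrow, passes through stages marked by surrogate light chain proteins, enters the blood and lymphoid organs as Ms4a1 (CD20) positive B cells, and can end in plasma cells, which lose Ms4a1 and secrete antibody. In the mouse heart, B cells are a small population found largely in and along the vessels, so a heart sample carries their RNA beside that of cardiomyocytes, endothelium and fibroblasts.

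The promoters of Vpreb3 and Jchain are shown because both genes were higher in fasted hearts and because immunoglobulin promoters hold the octamer that the Oct proteins and their B cell coactivator Pou2af1 use. The sequences are from the RefSeq table of build GRCm38.p6, in which 3 of the 5 genes matched, and run 5′ to 3′ along the gene from 250 bases before its start to 50 bases after it. The Vpreb3 window is chr10:75948050-75948349 on the plus strand, and the Jchain window is chr5:88527848-88528147 on the minus strand. Capitals mark the octamer.
Vpreb3: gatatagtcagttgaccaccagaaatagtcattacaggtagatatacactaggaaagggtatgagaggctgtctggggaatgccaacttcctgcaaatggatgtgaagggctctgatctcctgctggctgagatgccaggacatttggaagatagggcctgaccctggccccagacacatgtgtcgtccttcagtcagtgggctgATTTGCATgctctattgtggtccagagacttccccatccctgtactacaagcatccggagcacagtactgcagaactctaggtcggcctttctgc
Jchain: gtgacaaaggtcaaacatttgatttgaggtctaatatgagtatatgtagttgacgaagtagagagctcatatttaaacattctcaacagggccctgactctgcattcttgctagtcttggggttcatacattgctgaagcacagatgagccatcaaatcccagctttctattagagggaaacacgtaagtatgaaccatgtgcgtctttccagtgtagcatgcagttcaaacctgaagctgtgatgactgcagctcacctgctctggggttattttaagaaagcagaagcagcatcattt
The octamer ATGCAAAT lay on the minus strand of the Vpreb3 window, with its first printed base at position -45 from the start, and was held by 1.74% of the 32851 windows in the table. These letters were not in the Jchain window on either strand. Neither window held the EBF1 core CCCNNGGG, present in 13.7% of all windows, or the PU.1 core GAGGAA, present in 28.3%. The Cd79a window, chr7:24897247-24897546 on the plus strand, held 1 PU.1 core on its minus strand at position -140 and neither of the other motifs. No motif overlapped another. Cd79b and Ms4a1 are not shown.

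Levels are given as the processed signal of a probe in percent of its array's 75th percentile, and differences as log2 fasted minus satiated, tested with limma over 20199 genes and unnamed probes. The median difference over all of these was -0.0042. Slide 1 carried hearts 1 and 2 of both groups and slide 2 hearts 3 and 4. The share of probes well above background was 66.6% to 68.9% on slide 1 and 54.4% to 55.6% on slide 2, and no spot was saturated. The lowest signal well above background was 1.63% to 1.99% of the 75th percentile on slide 1 and 4.50% to 5.37% on slide 2, so dim genes were measured less well on slide 2. The mean correlation of an array with the rest of its group was lowest for fasted heart 3, at 0.974, and 0.980 to 0.985 for the other arrays. The tissue label was checked against 12 cardiomyocyte genes, all of which were tested, with a summed level per array of 306210% to 449990% in fasted and 332960% to 425690% in satiated hearts. In such bulk samples, fewer cells of a type and less RNA per cell cannot be told apart.

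Of the 4 B lineage genes tested, 3 rose in fasted hearts at an adjusted p under 0.05: Jchain 10.0-fold, Ms4a1 2.94-fold and Vpreb3 1.99-fold. Among all 20199 genes and probes tested, 1983 (9.82%) were called higher. The genes were chosen with earlier results of these data known, so setting their count beside that share is no test. Cd79b was 2.15-fold higher in the group means but did not pass the test, and Cd79a was too dim to be tested. The sizes of the differences were uneven among the genes, and so was the spread behind them.

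Cd79a and Cd79b encode the paired signalling chains of the B cell receptor. Cd79a (probe A_52_P651316) had 1.16, 2.22, 1.46 and 2.45% of the array's 75th percentile in fasted hearts 1 to 4, against 1.76, 1.31, 1.05 and 1.08% in satiated hearts 1 to 4. It was well above background on 1 array, fasted heart 2, and on none of the satiated arrays, so no fold is given. The highest values were those of fasted hearts 4 and 2, while fasted heart 1 lay below satiated heart 1. Cd79b (A_51_P342652), well above background on all 8 arrays, had 62.7, 157, 48.6 and 153% in fasted hearts 1 to 4, against 50.1, 60.5, 33.5 and 33.7% in satiated hearts 1 to 4. Fasted hearts 2 and 4 stood far above the rest, fasted heart 1 only just above the highest satiated heart and fasted heart 3 within the satiated range. The log2 difference in Cd79b was 1.10 ± 0.42 (SE, n = 4 per group), with an adjusted p of 0.104 in limma. Slide 1 gave 0.85 and slide 2 gave 1.36. Leaving out fasted heart 3 gave 1.41 with an adjusted p of 0.0445.

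Ms4a1 encodes CD20, a surface protein of B cells from the late precursor to the mature stage. Its probe (A_52_P483336) had 14.6, 40.7, 20.6 and 47.8% of the 75th percentile in fasted hearts 1 to 4, against 10.0, 8.85, 9.06 and 9.78% in satiated hearts 1 to 4. All 4 fasted hearts lay above all 4 satiated hearts. Such a separation upward was seen for 2684 of 20172 genes and probes (13.3%) with a value on every array. The satiated hearts differed among themselves by 1.13-fold from lowest to highest and the fasted hearts by 3.28-fold, with hearts 2 and 4 again highest. The log2 difference was 1.55 ± 0.36 (SE, n = 4 per group), adjusted p = 0.0191 in limma, and was 1.37 on slide 1 and 1.74 on slide 2. Without satiated heart 2 it was 1.52 with an adjusted p of 0.0529.

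Vpreb3 encodes a small immunoglobulin-like protein that associates with the receptor chains inside B cell precursors. Its brighter probe (A_52_P433847) had 19.4, 25.8, 17.4 and 20.3% of the 75th percentile in fasted hearts 1 to 4, against 12.5, 9.35, 8.19 and 11.9% in satiated hearts 1 to 4. The groups did not overlap, and their spreads were alike, 1.48-fold among fasted and 1.52-fold among satiated hearts. The log2 difference was 0.99 ± 0.18 (SE, n = 4 per group), with an adjusted p of 0.00836 in limma, and it was 1.05 on slide 1 and 0.93 on slide 2. The call held when any 1 array was left out, and the difference was 0.58 with the normexp background correction (adjusted p = 0.0187) and 0.70 as the mean of both probes (adjusted p = 0.0210). The dimmer probe (A_51_P375789) had 5.94, 7.74, 5.31 and 4.43% in fasted hearts 1 to 4, against 4.36, 4.89, 3.85 and 4.27% in satiated hearts 1 to 4. That probe was well above background only on the 4 arrays of slide 1, its groups overlapped, and its log2 difference of 0.41 had an adjusted p of 0.151 when every probe was tested on its own.

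Jchain encodes the joining chain, which links IgM and IgA into polymers and is made in large amounts by plasma cells. Its brighter probe (A_51_P150710) had 45.3, 202, 17.6 and 163% of the 75th percentile in fasted hearts 1 to 4, against 6.91, 1.79, 25.6 and 8.21% in satiated hearts 1 to 4. Fasted hearts 2 and 4 stood far above the others, but fasted heart 3 lay below satiated heart 3, so the groups overlapped. This probe was well above background on all 8 arrays. In satiated heart 2, though, its 1.79% was close to the lowest signal well above background on that array, 1.63%. Without satiated heart 2 the log2 difference was 2.66. The hearts differed by 11.4-fold within the fasted and by 14.3-fold within the satiated group, the widest spread of the 5 genes in both groups. The log2 difference was 3.32 ± 0.97 (SE, n = 4 per group), adjusted p = 0.0447 in limma. It was 4.76 on slide 1, 1.88 on slide 2 and 2.13 with the normexp background correction (adjusted p = 0.0340). The second probe (A_51_P150705) also put fasted hearts 2, 4 and 1 highest. Its values were 17.0, 76.3, 7.19 and 69.4% in fasted hearts 1 to 4. In satiated hearts 1 to 4 they were 2.51, 0.828, 11.9 and 3.06%. The log2 difference at this probe was 3.26 (adjusted p = 0.0456 in limma when every probe was tested on its own). This probe was well above background on 4 fasted but only 2 satiated arrays, so part of its satiated signal lay near background. With the replicate number as a block, the adjusted p of Jchain was 0.0912. The call was also lost when fasted heart 1, 2 or 4 or satiated heart 1, 2 or 4 was left out, with adjusted p-values of 0.0721 to 0.100.

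**Figure D1:**
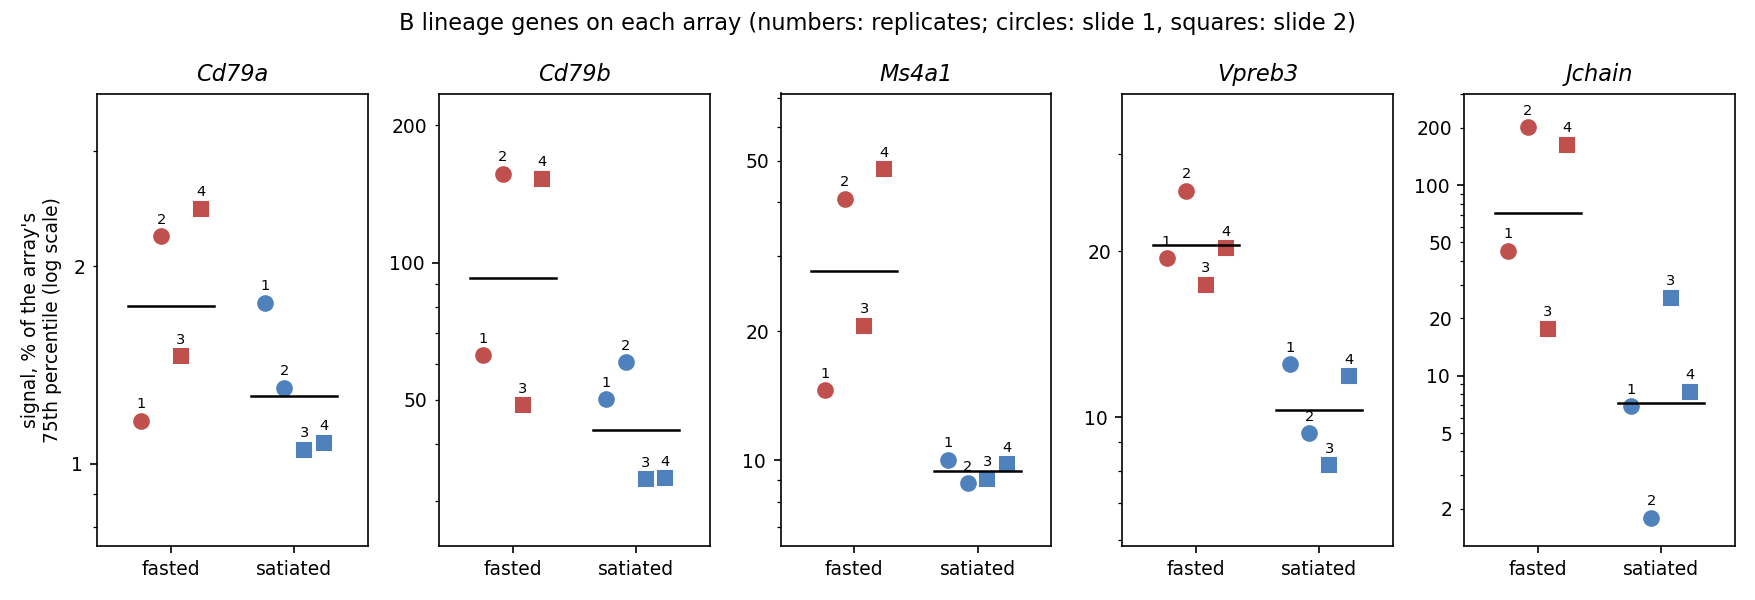
Signal of the brightest probe of each B lineage gene on every array, in percent of the array's 75th percentile on a log axis, fasted hearts left of satiated hearts. Points are single hearts with their replicate number, circles lie on slide 1 and squares on slide 2, and bars are the means of log2 values. Fasted hearts 2 and 4 are the 2 highest points in every panel, and the groups are separate for Ms4a1 and Vpreb3. Cd79a was well above background on only 1 array.

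Fasted hearts 2 and 4 had the 2 highest values of the brightest probe for all 5 genes, a pattern picked out after the values were seen. For Cd79a, well above background on only 1 array, this is a ranking of signals near background. Of all 20199 genes and probes tested, 395 (1.96%) had the same 2 arrays on top. Those hearts lay on different slides, and neither stood apart in its mean correlation with its group, 0.981 for fasted heart 2 and 0.980 for fasted heart 4. Fasted heart 3, by contrast, had the lowest fasted value of Cd79b, Vpreb3 and Jchain, and fasted heart 1 that of Cd79a and Ms4a1. With the slide as a block, Ms4a1, Vpreb3 and Jchain were again higher, where 17.1% of all genes and probes were called higher. With the replicate block, Ms4a1 and Vpreb3 were higher, where 15.4% were. Within a single slide, with 2 hearts per group, the difference was positive for each of the 4 tested genes and none passed the test. Leaving out fasted heart 3 gave 4 genes called higher and leaving out satiated heart 2 gave 1, Vpreb3.

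**Figure D2:**
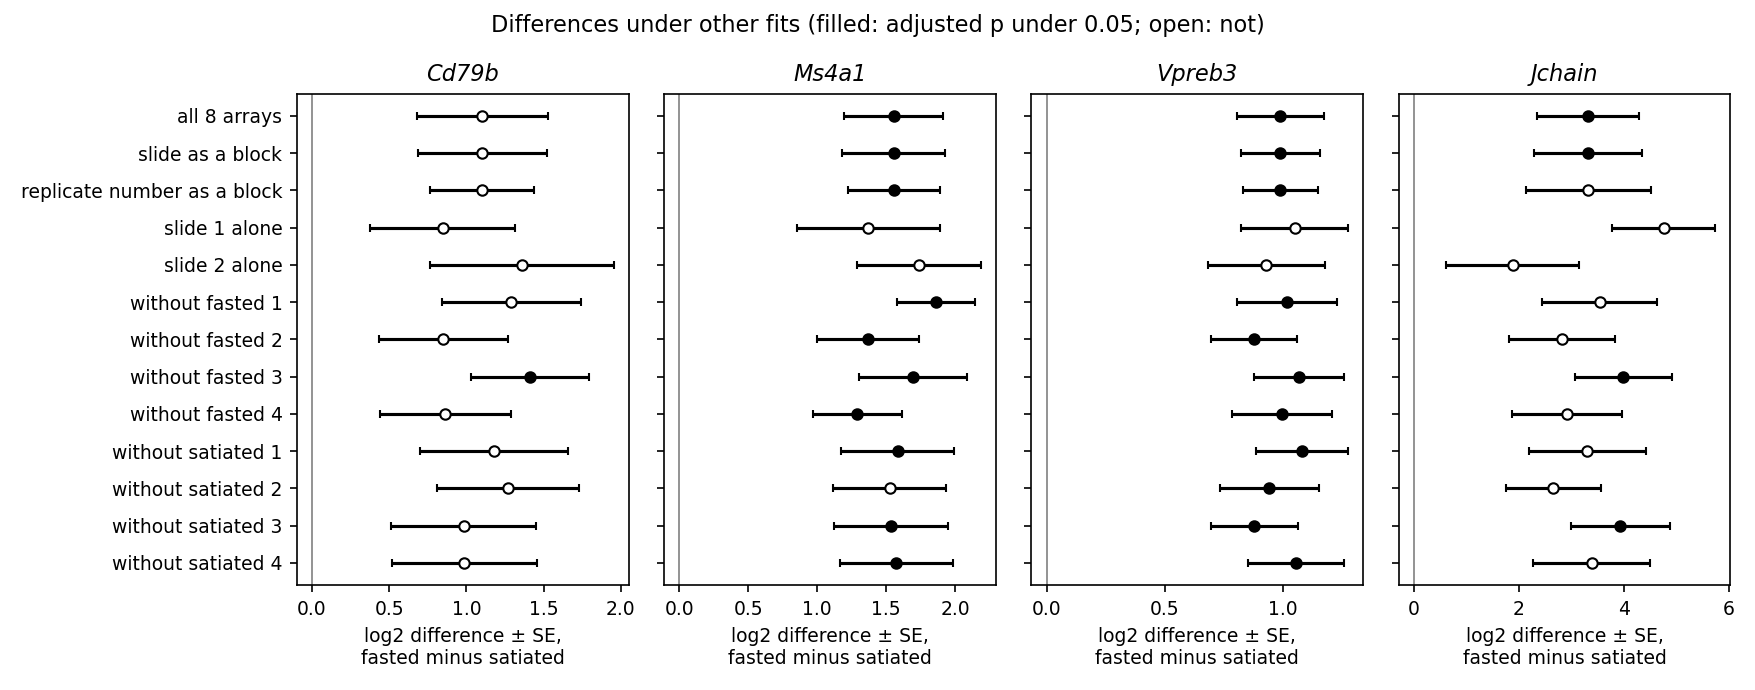
Log2 difference, fasted minus satiated, with its SE for the 4 tested B lineage genes under fits with blocks, on single slides and without single arrays, one row per fit, filled where the adjusted p was under 0.05. Every difference lies above 0. Among the block, single-slide and leave-one-out fits plotted, the points for Vpreb3 lie between 0.88 and 1.08 and those for Jchain between 1.88 and 4.76.

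The genes of the receptor complex and its signalling did not rise as a group. Of 26 listed, 19 were on the array and 16 were tested, of which 3 fell and 13 did not pass the test, with a median log2 difference of -0.11, where 2090 of all 20199 (10.3%) were called lower. Cd72, an inhibitory coreceptor, had 3.92, 6.84, 3.13 and 8.18% of the 75th percentile in fasted hearts 1 to 4, against 13.1, 17.6, 15.8 and 22.5% in satiated hearts 1 to 4. The groups were well apart, in the direction opposite to Ms4a1, with a log2 difference of -1.73 ± 0.32 (SE, adjusted p = 0.00873) and of -1.98 at a second probe. Cd72 was well above background on 3 of 4 fasted arrays, and its difference with the normexp background correction was -0.69 (adjusted p = 0.00925). Plcg2, the phospholipase downstream of the receptor, fell by 0.91 (SE 0.14, adjusted p = 0.00364), and both calls held when any 1 array was left out. Dapp1, an adaptor protein, was called lower at its brightest probe (-0.46 ± 0.13, adjusted p = 0.0446) and higher at its second (0.66 ± 0.19, adjusted p = 0.0432), so its direction was not settled, and the first call was lost without fasted heart 1 or 2 or any satiated heart (adjusted p up to 0.123). Blk and Pik3ap1 were not well above background on any array, and the immunoglobulin constant genes are not analysed here.

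Among the B cell surface genes, 16 of 24 listed were tested, of which 1 rose, 1 fell and 14 did not pass, with a median of 0.31. Over all genes and probes tested, 9.82% were called higher and 10.3% lower. Cd24a, a glycoprotein of immature B cells that other cells also carry, had 140, 204, 84.4 and 135% in fasted hearts 1 to 4, against 82.2, 56.8, 71.2 and 49.2% in satiated hearts 1 to 4. The groups did not overlap, and the log2 difference was 1.08 ± 0.28 (adjusted p = 0.0288), a call lost when any one of fasted hearts 1, 2 and 4 and satiated hearts 2, 3 and 4 was left out (adjusted p up to 0.0781). Cd74, the invariant chain of MHC class II, which macrophages and dendritic cells also make, fell by 0.88 (SE 0.24, adjusted p = 0.0325), a call lost without fasted heart 4 or any satiated heart (adjusted p up to 0.0871). Fasted hearts 2 and 4 were the highest for 6 of the 16 genes, Ccr7, Cxcr5, Fcmr, Fcrla and Tnfrsf13c among them, and none of the 6 passed the test. Over all genes and probes tested, the share with these arrays on top was 1.96%. Ccr7 and Tnfrsf13c were well above background on only 2 fasted and 2 satiated arrays. Cxcr5 and Fcrla were so on 3 fasted and 2 satiated arrays, and Fcmr on 4 of each. Cxcr5, the receptor that guides B cells to follicles, had 8.52, 13.0, 1.66 and 26.7% in fasted hearts 1 to 4, against 3.43, 3.98, 1.72 and 1.49% in satiated hearts 1 to 4. Its log2 difference was 1.78 ± 0.79 (adjusted p = 0.151).

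Of 15 transcription factors of the lineage, 10 were tested, of which 1 rose and 9 did not pass, with a median of 0.36. Called higher were 9.82% of all genes and probes tested. Pou2af1, the coactivator of the octamer shown above, had 21.0, 58.1, 30.3 and 99.4% in fasted hearts 1 to 4, against 12.1, 9.19, 17.0 and 15.5% in satiated hearts 1 to 4. All fasted hearts were above all satiated hearts, with hearts 4 and 2 highest. The log2 difference was 1.74 ± 0.46 (adjusted p = 0.0325), and the call was lost without fasted heart 2 or any satiated heart (adjusted p up to 0.0869). Pax5, the factor that commits cells to the lineage, was not well above background on any array, and Ebf1 did not pass the test (0.42 ± 0.26, adjusted p = 0.297).

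Of 10 genes of B cell precursors listed, 7 were tested, of which 1 rose, 2 fell and 4 did not pass, with a median of -0.23. The shares over all genes and probes tested were 9.82% called higher and 10.3% called lower. Il7r, the interleukin 7 receptor, which T cells also carry, rose by 1.31 (SE 0.29, adjusted p = 0.0174), a call lost without satiated heart 2 (1.19, adjusted p = 0.0517). Il7r was well above background on 3 fasted and 2 satiated arrays, and normexp gave 0.60 (adjusted p = 0.0180). Vpreb1, a surrogate light chain component, had 3.17, 3.32, 1.36 and 4.93% in fasted hearts 1 to 4, against 7.63, 7.53, 10.3 and 8.24% in satiated hearts 1 to 4. It fell by 1.53 (SE 0.36, adjusted p = 0.0199), a call lost without satiated heart 3 (adjusted p = 0.0536) or 4 (adjusted p = 0.0506), with no filter on dim probes (adjusted p = 0.0515) and with normexp, which gave -0.32 (adjusted p = 0.0773). It was well above background on 2 of 4 fasted arrays. Cd93, a surface protein of B cell precursors that endothelium also makes, fell by 0.63 (SE 0.18, adjusted p = 0.0400), a call that remained only without satiated heart 3 among the 8 fits that left out 1 array (adjusted p up to 0.108). Rag1 and Rag2, the recombinase of antigen receptor genes, were well above background on none of the arrays.

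Of 15 plasma cell genes, 14 were tested, of which 2 rose, 4 fell and 8 did not pass, with a median of 0.0033. Across all genes and probes tested, 9.82% were called higher and 10.3% lower. Derl3, a protein of endoplasmic reticulum degradation, rose by 1.90 (SE 0.16, adjusted p = 0.000532), with 18.2, 20.7, 17.1 and 17.9% in fasted hearts 1 to 4, against 4.98, 6.41, 4.82 and 3.88% in satiated hearts 1 to 4. Its fasted values were even, with no excess in hearts 2 and 4, and 2 of 4 satiated arrays were well above background. Normexp gave 0.95 for Derl3 (adjusted p = 0.000420). Irf4, a transcription factor of plasma cells and other lymphocytes, had 69.0, 8.36, 5.79 and 88.5% in fasted hearts 1 to 4, against 2.68, 3.24, 3.11 and 1.70% in satiated hearts 1 to 4. The high hearts here were 4 and 1, not 2, and the log2 difference of 3.16 ± 0.89 (adjusted p = 0.0385) lost its call with the replicate block (adjusted p = 0.0554) and without fasted heart 1 or 4 or any satiated heart (adjusted p up to 0.0966). Irf4 was well above background on 2 of 4 satiated arrays, and normexp gave 1.70 (adjusted p = 0.0497). Prdm1, the factor that drives plasma cell differentiation, fell by 0.97 (SE 0.27, adjusted p = 0.0401), a call kept only without satiated heart 1 or 3 (adjusted p up to 0.101 otherwise) and lost with normexp (-0.47, adjusted p = 0.100). Pdia4, a protein disulfide isomerase, fell by 0.65 (SE 0.19, adjusted p = 0.0429), a call kept only without fasted heart 2 or 3 (adjusted p up to 0.112 otherwise). Mzb1, a chaperone of immunoglobulin assembly in B and plasma cells, did not pass (0.20 ± 0.35, adjusted p = 0.748).

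Ligands and niche signals for B cells held the largest called difference of these lists, that of Cxcl13. Of 13 listed, 9 were tested, of which 1 rose, 2 fell and 6 did not pass, with a median of -0.05. Among all genes and probes tested, the shares were 9.82% higher and 10.3% lower. Cxcl13, the chemokine that attracts B cells through Cxcr5, had 143, 312, 102 and 206% in fasted hearts 1 to 4, against 17.2, 12.0, 23.5 and 18.2% in satiated hearts 1 to 4. The groups were far apart with hearts 2 and 4 on top, and the log2 difference was 3.34 ± 0.35 (adjusted p = 0.00104). Ccl21a, which draws lymphocytes through Ccr7, had 216, 237, 156 and 210% in fasted hearts 1 to 4, against 528, 550, 390 and 442% in satiated hearts 1 to 4, a fall of 1.22 (SE 0.18, adjusted p = 0.00308). Cxcl12, which retains B cell precursors in the marrow, fell by 0.84 (SE 0.13, adjusted p = 0.00458) and by 0.83 at its second probe. These 3 calls held when any 1 array was left out. Tnfsf13b, the survival factor BAFF, was not called (0.32 ± 0.12, adjusted p = 0.0971).

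**Figure D3:**
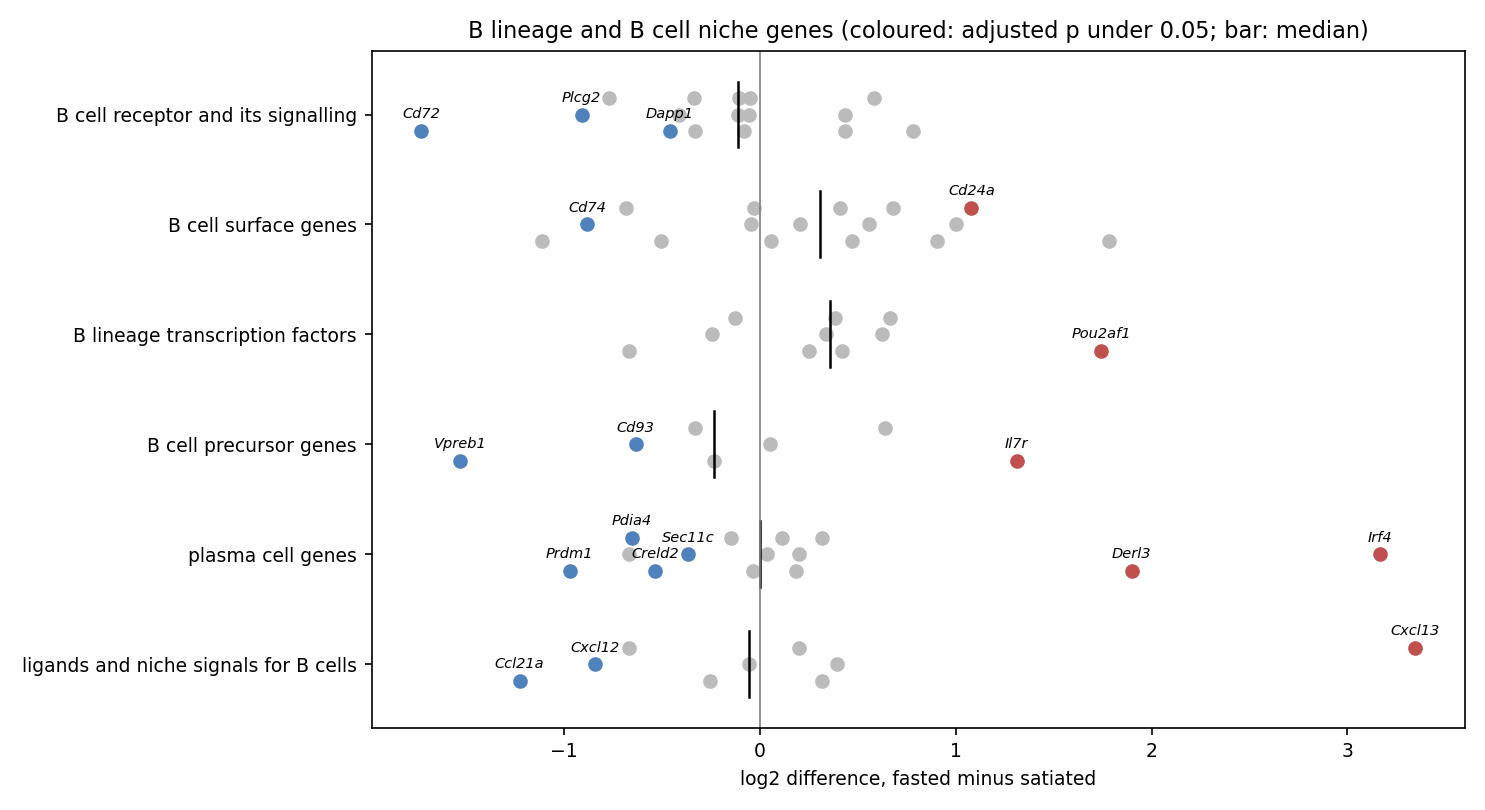
Log2 difference, fasted minus satiated, of each tested gene in the lists of B lineage and B cell niche genes, coloured and named where the adjusted p was under 0.05, red for higher and blue for lower in fasted hearts, with a bar at each list's median. The list medians lie between -0.23 and 0.36, and called genes stand on both sides of 0 in most lists.

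Other leukocytes were read from lists of their markers, set beside a share of 20.2% of all genes and probes called in either direction. Of 17 T cell genes tested, 2 fell, Bcl11b (-2.52 ± 0.41, adjusted p = 0.00520) and Thy1 (-0.97 ± 0.20, adjusted p = 0.0131), with a median of -0.02. Bcl11b was well above background on 2 of 4 fasted arrays, and normexp gave -0.83 (adjusted p = 0.00113). Of 7 NK cell genes none passed limma's test and none had an unadjusted p under 0.05, Il2rb having the smallest p (0.53 ± 0.25, adjusted p = 0.182). Of 13 pan-leukocyte genes, 1 rose, Cytip (1.10 ± 0.27, adjusted p = 0.0231, up to 0.0610 without fasted heart 1 or 4 or satiated heart 1, 2 or 3), with a median of -0.26. The second Cytip probe was not called (0.76 ± 0.59, adjusted p = 0.410 in limma), nor was the mean of its probes (0.93, adjusted p = 0.0786). The mean log2 level of the pan-leukocyte genes per array was -1.70 to -0.76 in fasted hearts, against -1.24 to -0.89 in satiated hearts. The fasted hearts thus spread to both sides of the satiated ones. Of 9 dendritic cell genes 1 fell, Bst2 (-1.02 ± 0.11, adjusted p = 0.00117), with a median of -0.39. Cox6a2 on this list, not called (adjusted p = 0.788 in limma), had 38120% to 52410% per array. That is within the range of the cardiomyocyte genes, so this list does not stand for dendritic cells alone. Of 8 thymocyte genes 2 rose, Rmnd5a among them (0.52 ± 0.11, adjusted p = 0.0162, 0.0549 without satiated heart 4), and Arpp21 fell (-0.89 ± 0.20, adjusted p = 0.0178, 0.0519 without satiated heart 2 and 0.0532 without satiated heart 4, and -0.25 with an adjusted p of 0.153 with normexp). Hearts 2 and 4 of the fasted group were highest for 1 T cell gene, 2 pan-leukocyte genes, and no NK cell, dendritic cell or thymocyte gene.

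Of the other leukocyte lists, that of neutrophils had the highest median difference. Of 13 neutrophil genes 7 were tested and 3 rose, with a median of 1.25 and fasted hearts 2 and 4 highest for 4 of the 7. Retnlg, a secreted resistin-like protein, rose by 3.64 (SE 0.32, adjusted p = 0.000572). It was well above background on 1 of 4 satiated arrays, and normexp gave 1.43 (adjusted p = 0.000838). S100a8 rose by 1.32 (SE 0.34, adjusted p = 0.0288) and S100a9 by 1.25 (SE 0.37, adjusted p = 0.0489). S100a8 and S100a9, calcium-binding alarmins, lost the call when any one of fasted hearts 1, 2 and 4 and satiated hearts 1, 2 and 4 was left out (adjusted p up to 0.119), and S100a9 also without satiated heart 3 and with the replicate block (adjusted p = 0.0684). The summed level of the tested neutrophil genes was 182% to 669% per array in fasted hearts, against 122% to 194% in satiated hearts, most of it from S100a9, and Elane and Cxcr2 were well above background on none of the arrays. Of 19 macrophage and monocyte genes, 2 rose, Plac8 (2.02 ± 0.24, adjusted p = 0.00153) and Cd14 (0.80 ± 0.24, adjusted p = 0.0484), and 3 fell, among them Folr2 (-1.28 ± 0.24, adjusted p = 0.00888) and Cx3cr1 (-2.43 ± 0.55, adjusted p = 0.0173), with a median of -0.08. Cx3cr1 was well above background on 2 of 4 fasted arrays, and normexp gave -0.73 (adjusted p = 0.0355). The Cd14 call remained only without fasted heart 3 (adjusted p up to 0.120 otherwise). The summed level of the macrophage list was 9869% to 12971% in fasted and 8141% to 10945% in satiated hearts, of which Ly6c2 alone, which was not called (adjusted p = 0.138), gave 5621% to 8398% in fasted and 4174% to 7078% in satiated hearts. The part of other leukocytes in the B lineage differences was not tested.

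**Figure D4:**
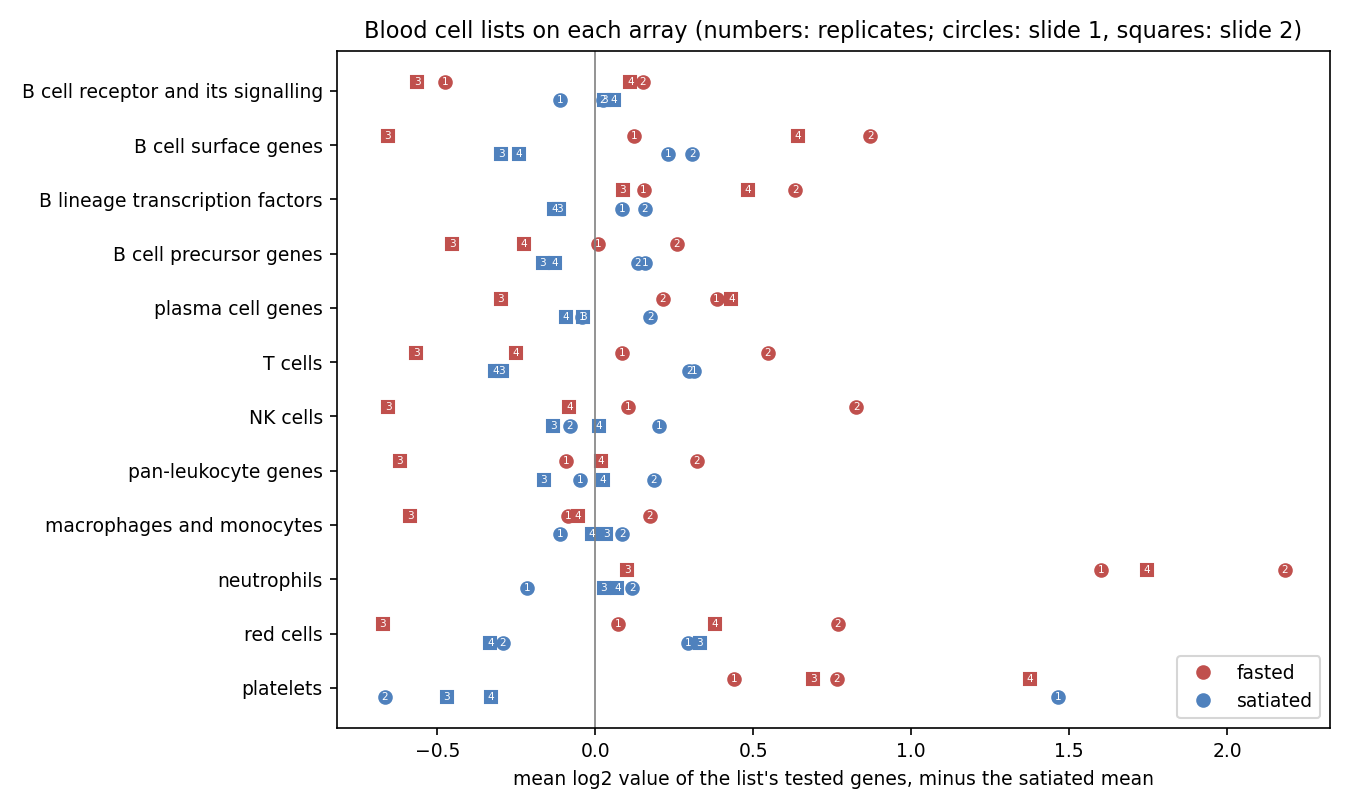
Mean log2 value of the tested genes of each blood cell list on every array, as the difference from the satiated mean, with fasted hearts above satiated hearts in each row, replicate numbers in the points, circles for slide 1 and squares for slide 2. Fasted heart 3 is the lowest fasted point for most lists, and fasted hearts 1, 2 and 4 stand apart for neutrophils.

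The genes whose values over the 8 arrays were most like the mean standardised profile of the 4 tested B lineage genes included Marco, C3, Napsa, Slc39a4, Celf4, Sirpb1a and Fcna, 7 of the 8 with the highest r out of 9735 named genes with an SD of at least 0.25. Pearson's r over the 8 arrays ran from 0.98 for Marco to 0.96 for Fcna, and within the groups, with group means removed, from 0.85 for Fcna to 0.96 for Sirpb1a. These are descriptions over 8 arrays that share their groups and slides, and the genes were picked for their r. Marco, a scavenger receptor of macrophages, had 61.1, 475, 69.5 and 282% in fasted hearts 1 to 4, against 13.2, 11.5, 16.9 and 10.9% in satiated hearts 1 to 4. Its fasted hearts lay far above its satiated hearts, with hearts 2 and 4 on top as in the B lineage genes, and its log2 difference was 3.58 ± 0.64 (adjusted p = 0.00743). C3, the central complement component, had 5907, 7689, 5938 and 7701% in fasted hearts 1 to 4, against 5250, 4750, 4550 and 5214% in satiated hearts 1 to 4, a small difference that did not pass the test (0.45 ± 0.14, adjusted p = 0.0518). Fcna, the lectin ficolin A, had 59.9, 180, 72.1 and 109% in fasted hearts 1 to 4, against 36.0, 41.2, 36.6 and 42.9% in satiated hearts 1 to 4 (1.30 ± 0.32, adjusted p = 0.0240), a call lost without fasted heart 4 or any satiated heart (adjusted p up to 0.0593). Napsa, an aspartic protease, Slc39a4, a zinc importer, and Celf4, an RNA-binding protein, were called higher by 0.78 to 1.59. The Celf4 call was lost without fasted heart 1 or 4 or any satiated heart (adjusted p up to 0.0763) and that of Napsa without fasted heart 4 or satiated heart 2, 3 or 4 (adjusted p up to 0.0646), and normexp gave 0.42 for Celf4 and 0.82 for Napsa, both still called. Sirpb1a, a signal regulatory protein, was not called (0.69 ± 0.24, adjusted p = 0.0798). It read 2.36% in fasted heart 3 and 2.30 and 2.18% in satiated hearts 3 and 4. The lowest signal well above background on those arrays was 4.71% to 5.37%, so its likeness rests in part on signals near background.

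**Figure D5:**
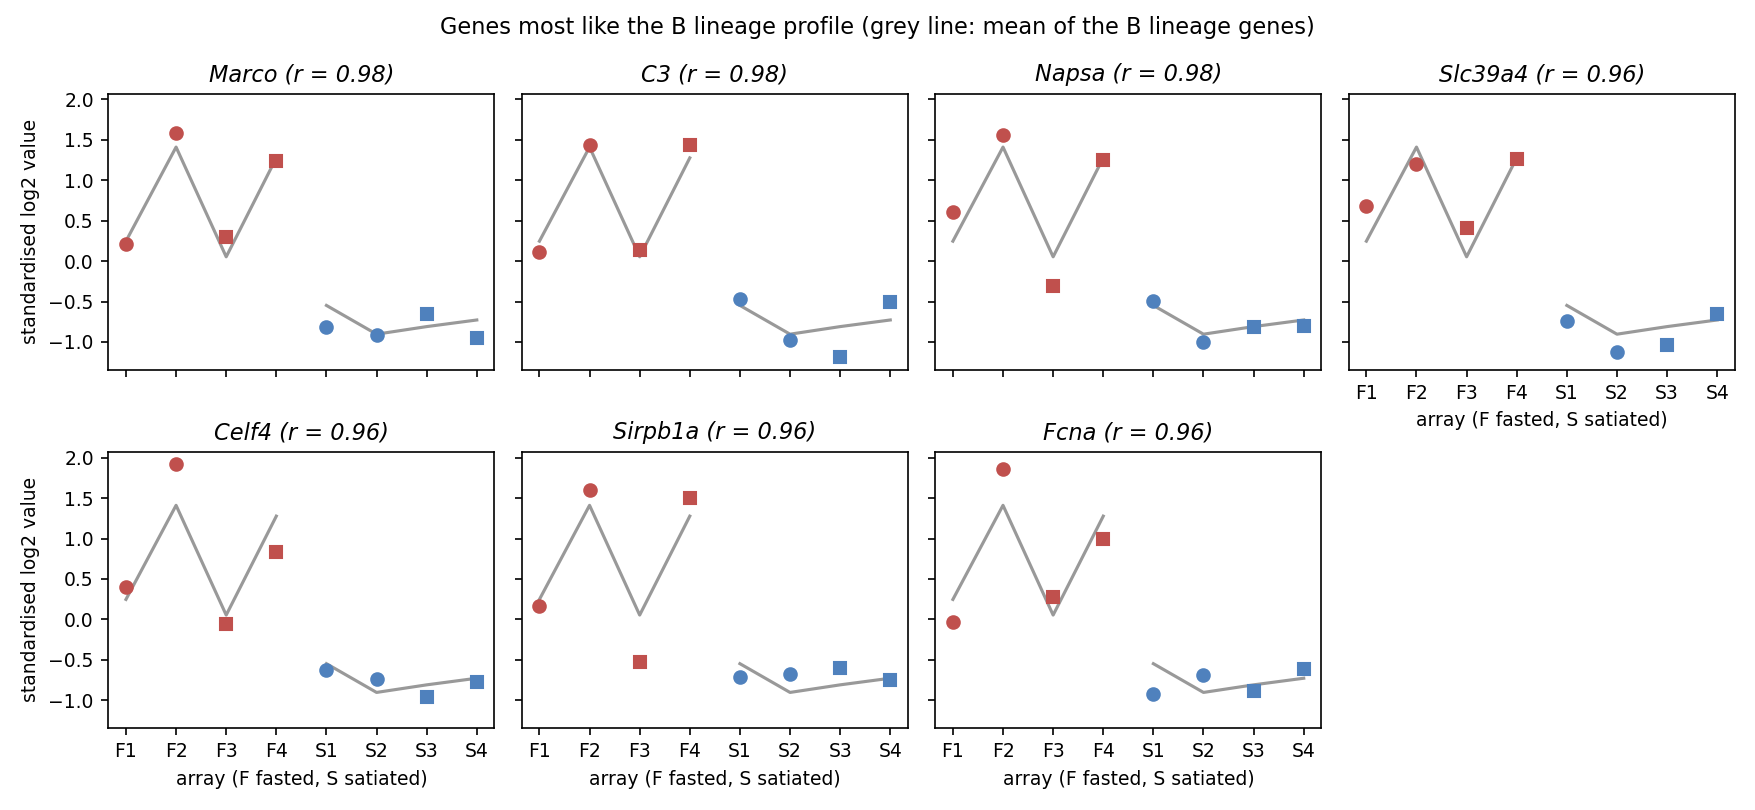
Standardised log2 values of 7 of the 8 genes most like the B lineage profile, one panel per gene with Pearson's r over the 8 arrays, fasted hearts left of satiated hearts, circles for slide 1 and squares for slide 2. The grey line is the mean of the 4 tested B lineage genes, which peaks at fasted hearts 2 and 4 in every panel.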

How the data were processed

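RNA of 8 hearts was read on 1-colour arrays. Spot intensities were deposited as Agilent Feature Extraction output, with the background subtracted on each array and without scaling of one array to another, per the file headers. Slide 1 was read with version 10.5.1.1 and slide 2 with 10.7.3.1 by the same headers, and the submitters' processing notes name version 9.1. A deposited table of linear ratios, made in a way not given in the sources used here, served as an alternative. After centring, this table differed from the scanner values of the B lineage probes by at most 0.132 on the log2 scale. Its scale and direction are those of the intensities, and the origin of its array factors stays unknown.

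Of 45018 spots per array, 1639 controls and outlier spots were left out, and spots of a probe were averaged. From the log2 of the processed intensity the array's 75th percentile was subtracted. Of 41174 probes, 26476 were well above background on at least 4 of 8 arrays and were kept. Accessions gave a symbol for 26690 probes (64.8%) through the RefSeq gene table of GRCm38.p6, none had several, and 14484 stayed unnamed. A gene was represented by its brightest kept probe. Groups were compared with limma 3.58.1 in R 4.3.3, after reading the files with data.table, release 1.17.8. Tests were two-sided, p-values were adjusted by Benjamini-Hochberg and the threshold was 0.05. Only the limma fit was tried on simulated data, not the steps before it. Figures were drawn with matplotlib 3.10.9 in Python 3.11.15. Arrays give no counts, so their number, 4 per group, limits the precision.

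The labels give both groups replicates 1 to 4. Same-numbered hearts deviated together from their group means (r = 0.439, 0.475, 0.331 and 0.493). Other hearts on the same slide did so too (0.291 to 0.522), so same-numbered hearts stood out no more than these. Hearts on different slides gave -0.531 to -0.284, values that removing the group means pushes below 0. Whether the slide or the replicate number pairs the hearts was not tested. Each slide was scanned on its own with its own software version, and these cannot be told apart. Alternatives were other filters, background corrections, normalizations, probe rules, slide and replicate blocks, array weights, the deposited ratios and leaving out arrays. Normexp used the median signal with an offset of 50, not the mean signal that had been planned.

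The genes named are the 5 B lineage genes; of each of 19 marker lists, the called genes with the smallest p, up to 4, or the single smallest; and the 8 genes most like the B lineage profile. A few genes that this rule names are not reported here. Cxcr5, Ebf1, Mzb1, Tnfsf13b, Pax5 and other genes given as not called or not above background were named after their values were seen. The B lineage genes and the lists were chosen with earlier results of these data known.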

Additional observations from a re-analysis of the deposited data

Results flagged for a closer look

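Over 114 groups of 4 hearts examined for a single heart far from its group, 2 hearts stood out, where chance alone marks about 1 group in 20. The log2 level of Cd93 relative to the array's 75th percentile was 3.38 in fasted heart 3, against 3.68 to 3.74 in the other fasted hearts. The log2 level of Rmnd5a was 1.30 in fasted heart 3, against 1.01 to 1.03 in the other fasted hearts. None of the 5 B lineage genes had such a heart in either group.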

How the results depend on the processing

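Each result was recomputed under 21 other settings. The differences of Cd79b, Ms4a1, Vpreb3 and Jchain were positive in all 21. Of all genes and probes, 4073 were called, against 2225 with no filter on dim probes, 7177 with the slide as a block, 6489 with the replicate block, 1883 on slide 1 alone, 1 on slide 2 alone and 2495 to 3690 when 1 array was left out; the slides alone hold 2 hearts per group. Of the B lineage genes, 3 were called, against 0 on slide 1 alone, 0 on slide 2 alone and 1 to 4 when 1 array was left out. On slide 1 alone the differences no longer passed the test for Ms4a1 (1.37, adjusted p = 0.157), Vpreb3 (1.05, 0.0609) and Jchain (4.76, 0.0573), nor on slide 2 alone for Ms4a1 (1.74, adjusted p = 0.124), Vpreb3 (0.93, 0.128) and Jchain (1.88, 0.392). Jchain (3.32) also lost its call with no filter on dim probes (adjusted p = 0.0969) and with the replicate block (adjusted p = 0.0912), which ended no other call of the 5 genes. Leaving out 1 array at a time gave 0.85 to 1.41 for Cd79b, passing only without fasted heart 3, 1.29 to 1.86 for Ms4a1, 0.88 to 1.08 for Vpreb3 and 2.66 to 4.00 for Jchain. Cd79a, left out of the test for its dimness, had an adjusted p of 0.489 in the fit with no filter on dim probes. The normexp background correction gave smaller differences, 0.58 for Vpreb3, 1.06 for Ms4a1 and 2.13 for Jchain, which still passed. Dapp1 turned to 0.10 as the mean of its probes. Over the 21 settings the called genes of the receptor list were 0 to 2 higher and 0 to 5 lower (0 and 3 as reported), of the surface list 0 to 3 and 0 to 3 (1 and 1), of the transcription factors 0 to 2 and 0 to 1 (1 and 0), of the precursor list 0 to 1 and 0 to 2 (1 and 2), of the plasma cell list 0 to 3 and 0 to 4 (2 and 4), and of the ligands 0 to 3 and 0 to 2 (1 and 2). The causes were not tested. Signals near background limit what can be said of Cd79a, of the second Jchain probe in satiated hearts and, on slide 2, of the second Vpreb3 probe. The same holds for the brighter Jchain probe in satiated heart 2.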

Other observations

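Lists of blood and structural cells that the hearts also hold were read in the same way. Of 6 red cell genes tested, none passed limma's test and none had an unadjusted p under 0.05, with a median log2 difference of 0.14 and with fasted hearts 2 and 4 highest for 2 of them; Alas2, an enzyme of heme synthesis, had the smallest p (0.39 ± 0.32, adjusted p = 0.436). Of 10 platelet genes, none passed limma's test and 2 had an unadjusted p under 0.05, with a median of 0.93; Pf4, a chemokine of platelet granules, had the smallest p (-0.66 ± 0.20, adjusted p = 0.0515). Satiated heart 1 had the highest mean log2 level of the satiated hearts for this list, -0.97 against -3.10 to -2.76 in the others. Without satiated heart 1, 8 of the 10 were called higher in fasted hearts, where 1474 of all 20199 genes and probes were.

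For the lists that follow, the shares over all genes and probes tested were 9.82% called higher and 10.3% called lower. Of 10 fibroblast genes, 1 rose and 7 fell, with a median of -0.81. Col3a1 fell by 2.56 (SE 0.40, adjusted p = 0.00412), Lum by 1.48 (SE 0.17, adjusted p = 0.00137) and Postn by 1.12 (SE 0.15, adjusted p = 0.00253), all genes of the extracellular matrix, and Dcn, another, rose by 0.56 (SE 0.12, adjusted p = 0.0155, 0.0505 without satiated heart 2). Of 12 cardiomyocyte genes 1 fell, the cardiac actin Actc1 (-1.64 ± 0.13, adjusted p = 0.000354), with a median of -0.11. Of 11 endothelial genes none passed limma's test and 1 had an unadjusted p under 0.05, Kdr, a receptor of vascular growth factor (-0.46 ± 0.15, adjusted p = 0.0679). Of 8 adipocyte genes, Adipor2 (0.74 ± 0.16, adjusted p = 0.0151) and Lipe (0.95 ± 0.18, adjusted p = 0.00806) rose and Car3 fell (-3.67 ± 0.48, adjusted p = 0.00227), by 2.41 on slide 1 and by 4.93 on slide 2. Fasted hearts 2 and 4 were the highest for none of the platelet, fibroblast, cardiomyocyte, endothelial and adipocyte genes tested.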
